A study of Homo sapiens with 6 samples.

Results

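The heat shock chaperones described here are 41 genes that code for the protein folding machinery of the cytosol and the mitochondria and for its regulators. They are chosen by symbol from the 58395 genes listed for HCT116 cells, a colorectal cancer cell line. The RNA-seq compares 3 biological replicates that carry a non-target short hairpin RNA (shControl) with 3 that carry a hairpin against STBD1 (shSTBD1), a protein that binds glycogen and carries it into autophagy. Both hairpins were delivered by lentivirus followed by drug selection, and the labels name no further treatment. One hairpin sequence is given for each group, so an effect of STBD1 loss and an effect of the hairpin itself cannot be told apart. All 41 members pass the filter on low counts, out of 15566 genes tested.

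Chaperones bind unfolded stretches of other proteins and release them in cycles driven by ATP. HSP70 proteins receive their clients from J-domain proteins and let them go with the help of nucleotide exchange factors, HSP90 acts later on kinases and steroid receptors together with its co-chaperones, and the ring-shaped chaperonins TRiC (cytosol) and HSP60 (mitochondria) enclose a client while it folds. Small heat shock proteins hold unfolded clients without ATP. Heat shock transcription factors, mainly HSF1, switch many of these genes on during proteotoxic stress by binding heat shock elements in their promoters, and cancer cells often carry high levels of the machinery.

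The promoters of 5 members are shown because they carry, or nearly carry, the element through which HSF1 acts. The search used the 13-base form GAANNTTCNNGAA, 3 alternating units, and its reverse complement TTCNNGAANNTTC, so both strands are covered and overlapping matches are each counted. Windows run from 250 bases before to 50 bases after each RefSeq start site (GRCh38.p14), and each sequence reads 5′ to 3′ on the strand of the gene. Capitals mark the bases of matching elements. The first 4 hold exact matches, and HSPB1 holds a match with 1 mismatch.
CHORDC1 (chr11:90223000-90223299, minus strand): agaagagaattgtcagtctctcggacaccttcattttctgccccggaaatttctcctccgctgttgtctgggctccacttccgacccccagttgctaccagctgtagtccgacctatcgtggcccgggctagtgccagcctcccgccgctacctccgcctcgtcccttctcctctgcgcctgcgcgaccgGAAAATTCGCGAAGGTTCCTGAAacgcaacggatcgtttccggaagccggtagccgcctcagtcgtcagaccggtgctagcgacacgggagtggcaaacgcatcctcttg
HSPA8 (chr11:123062087-123062386, minus strand): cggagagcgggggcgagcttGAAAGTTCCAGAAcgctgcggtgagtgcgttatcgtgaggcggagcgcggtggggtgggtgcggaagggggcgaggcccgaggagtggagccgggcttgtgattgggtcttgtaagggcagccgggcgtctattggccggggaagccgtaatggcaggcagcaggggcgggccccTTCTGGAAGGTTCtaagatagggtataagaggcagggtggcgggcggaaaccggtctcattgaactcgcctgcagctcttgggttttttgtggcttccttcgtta
HSP90AA1 (chr14:102086995-102087294, minus strand): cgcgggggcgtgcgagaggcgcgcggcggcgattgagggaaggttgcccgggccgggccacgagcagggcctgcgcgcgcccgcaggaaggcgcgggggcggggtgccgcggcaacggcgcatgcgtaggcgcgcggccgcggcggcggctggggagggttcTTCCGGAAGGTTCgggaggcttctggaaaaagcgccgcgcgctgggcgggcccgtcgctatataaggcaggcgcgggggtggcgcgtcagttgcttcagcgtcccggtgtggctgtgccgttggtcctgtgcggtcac
HSPD1 (chr2:197499791-197500090, minus strand): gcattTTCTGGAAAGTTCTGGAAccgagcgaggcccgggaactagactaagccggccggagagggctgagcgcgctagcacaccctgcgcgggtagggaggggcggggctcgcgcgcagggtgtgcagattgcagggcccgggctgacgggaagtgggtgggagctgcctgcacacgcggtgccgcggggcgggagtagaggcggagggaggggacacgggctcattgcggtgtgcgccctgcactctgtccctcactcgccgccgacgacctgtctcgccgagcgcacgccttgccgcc
HSPB1 (chr7:76302423-76302722, plus strand): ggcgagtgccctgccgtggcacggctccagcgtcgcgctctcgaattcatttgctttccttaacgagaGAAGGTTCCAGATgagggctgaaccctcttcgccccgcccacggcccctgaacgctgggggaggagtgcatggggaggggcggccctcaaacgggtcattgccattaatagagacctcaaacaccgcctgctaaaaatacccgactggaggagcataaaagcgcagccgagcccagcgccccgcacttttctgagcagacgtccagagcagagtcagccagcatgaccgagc

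A RefSeq window is at hand for 37 of the 41 members, and those without one are CCT6A, FKBP4, HSF1 and HSPA14. An exact element lies in the promoter of 7 members, CHORDC1, DNAJA1, DNAJB6, HSP90AA1, HSP90AB1, HSPA8 and HSPD1. Counted by window, 13.5% of 52 member windows hold one, beside 0.49% of 35116 windows of all genes. With 1 mismatch allowed the share is 36.5% of the member windows and 6.24% of all windows, and 18 member genes then match. In HSPD1 the overlapping elements start 245 bases before its start site. HSPE1 is read in the opposite direction from chr2:197500140-197503449 (plus strand), so that these elements lie between this HSPD1 start and the annotated start of HSPE1. The window of HSPE1 itself (chr2:197500129-197500428) does not overlap the printed one and holds no match. A match describes the letters and not a bound site.

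The libraries hold between 17689097 and 21668274 expected counts. STBD1, the targeted gene, is at 5.73, 5.83 and 5.27 TPM in shControl 1 to 3 and at 4.19, 3.22 and 3.27 TPM in shSTBD1 1 to 3, where TPM is a level corrected for gene length and library size. The groups do not overlap, and its log2 fold change on counts is -0.64 (SE 0.098, edgeR quasi-likelihood test with Benjamini-Hochberg adjustment, adjusted p = 0.00029). shControl 1 stands apart from its group, with a chi-square per degree of freedom of 6.57 and 5.19 against the other two, which differ from each other by 1.64, and values without it are given below where a call depends on it. Of the epithelial markers EPCAM, CDH1, KRT8, KRT18 and KRT19 are well expressed, CDX2 lies between 4.57 and 7.65 TPM, and VIL1 and LGALS4 stay at or under 0.21 TPM. Of the markers of other cell types PTPRC and CD3E are at 0 in all 6 libraries, and COL1A1 lies between 14.6 and 20.6 TPM. KRT8, KRT18, KRT19 and CDH1 are higher in shSTBD1 by between 0.20 and 0.29 on the log2 scale. EPCAM with 0.04 and CDX2 with -0.072 do not pass (edgeR adjusted p = 0.42 and 0.66). The TPM of CDX2 are lower in shSTBD1 without overlap. The list thus does not move as a whole, and the part of these shifts in the results below was not tested.

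The machinery is highly expressed in both groups. The 41 genes together hold between 13641 and 14079 TPM, which is 1.36% to 1.41% of each library, and the mean share is 1.38% ± 0.0155 (SD, n = 3) for shControl against 1.38% ± 0.0233 (SD, n = 3) for shSTBD1. The most abundant member is HSP90AB1, the constitutive cytosolic HSP90, at 2400, 2358 and 2321 TPM in shControl and 2403, 2331 and 2285 TPM in shSTBD1. HSPA8, the constitutive HSP70, follows with a mean of 1824 TPM over the 6 libraries, then the inducible HSP90AA1 with 1407 TPM and HSPD1, the HSP60 chaperonin, with 931 TPM. These 4 keep clear distances from each other in every library. At the low end stand HSF2, BAG2, HSPA4L, HSPA13 and HSPA14 between 12.3 and 20.9 TPM, with overlapping values, and HSPA1A between 2.26 and 4.69 TPM.

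**Figure D1:**
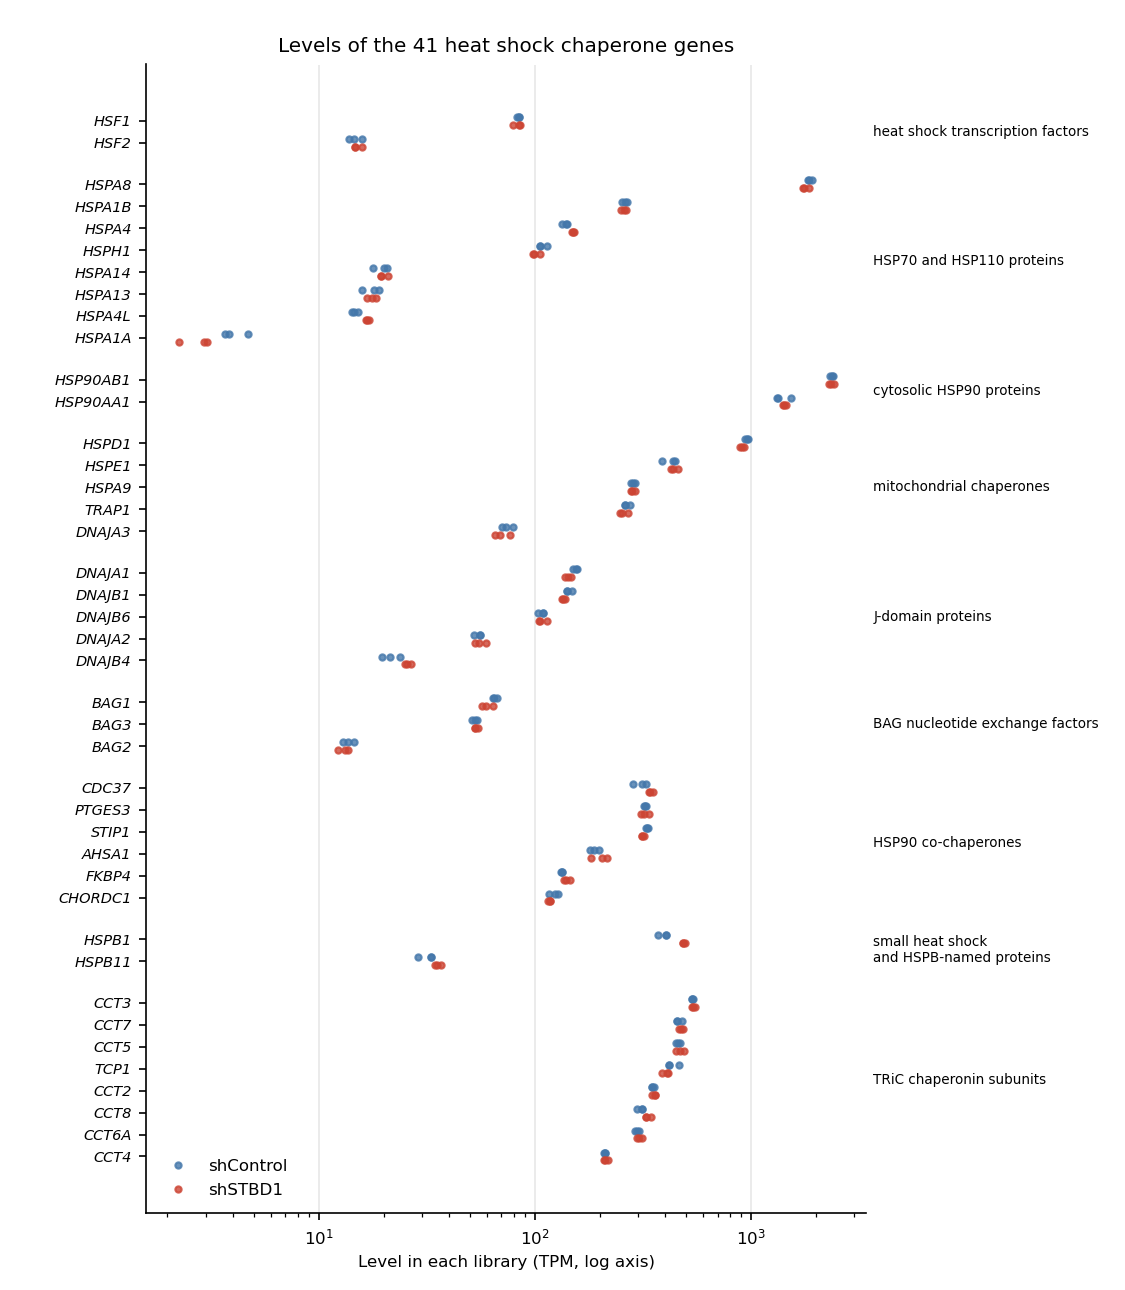
Level of each of the 41 member genes in each library, in TPM on a log axis, grouped by role, with shControl in blue and shSTBD1 in red. Levels span from HSPA1A at 2.26 TPM to HSP90AB1 at 2403 TPM, and for most genes the points of both groups lie side by side.

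Changes between the groups are small. By the edgeR test 9 of the 41 members pass an adjusted p of 0.05 (22.0%), while 15.8% of all tested genes do. In shSTBD1 7 members are higher (17.1%, beside 8.22% of all tested genes) and 2 are lower (4.88%, beside 7.54%). The median SE is 0.034 for the members and 0.068 for all tested genes, so a smaller change can pass among the members. Its part in the shares called was not tested. The median log2 fold change of the members is 0.037, and that of all tested genes is 0.0023. The groups' CPM, which are counts scaled to library size, do not overlap for 16 members (39.0%), beside 33.6% of all tested genes. The members that change belong to several roles, namely HSPB1, DNAJB4, HSPA4L, CCT8 and the HSP90 co-chaperones CDC37, FKBP4 and AHSA1, which are higher, and HSPH1 and HSPA1A, which are lower.

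**Figure D2:**
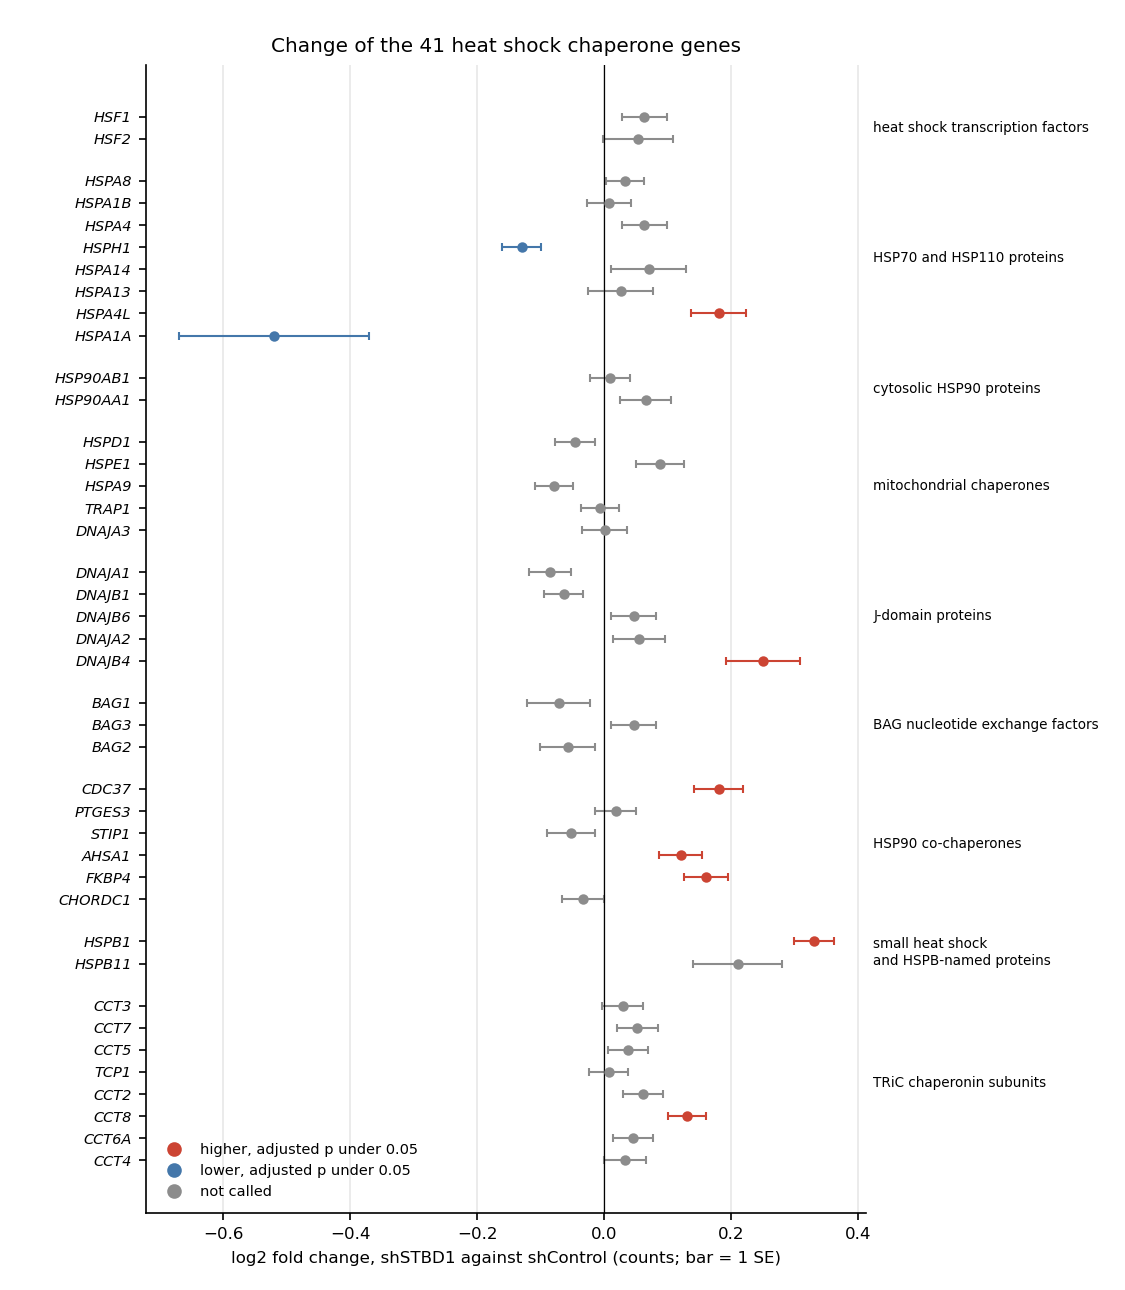
log2 fold change of each of the 41 members on counts, shSTBD1 against shControl, with bars of 1 SE, grouped by role and ordered by level within a role. The 7 red genes are higher and the 2 blue genes lower at an adjusted p under 0.05, and HSPB1 at 0.33 is the highest point.

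Most calls are lost in the fits that use RSEM's effective lengths, as offsets or through TPM. RSEM gives every gene an effective length in each library, which moves with the transcripts to which reads are assigned. With these lengths as offsets 2 members are called, HSPB1 and HSPA4, and 3.28% of all genes. With limma on log2(TPM + 1) 1 member is called, HSPB1, and 1.88% of all genes. This last fit changes the test as well as the scale. With offsets from a trend on gene length, which leave RSEM's effective lengths out, 8 of the 9 members are called. The estimates of the 9 members keep their direction in those fits. With effective-length offsets several do not shrink while the SE grows. CDC37 stays at 0.18 (SE 0.044 in place of 0.038). DNAJB4 moves from 0.25 to 0.28 (SE 0.073 in place of 0.058), and HSPA4L from 0.18 to 0.22 (SE 0.059 in place of 0.043). Others shrink, HSPH1 from -0.13 to -0.085 and FKBP4 from 0.16 to 0.11.

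HSPB1 (HSP27, ENSG00000106211, chr7:76302673-76304295, plus strand), a small heat shock protein that also protects the actin cytoskeleton, has 218, 224 and 226 CPM in shControl and 276, 278 and 285 CPM in shSTBD1. Every shSTBD1 library lies above every shControl library, also on the TPM scale, with 372, 403 and 402 against 486, 482 and 494 TPM. The log2 fold change is 0.33 (SE 0.031, edgeR adjusted p = 2.2e-06), a fold of 1.25. The gene is called in all 17 alternative fits, with log2 fold changes from 0.26 to 0.34. Its promoter, printed above, carries the element with 1 mismatch, 182 bases before the start. HSPB11, now named IFT25, bears the family name but is known as a part of the intraflagellar transport machinery. Its CPM are 15.6, 17.3 and 17.6 in shControl and 19.0, 19.1 and 20.1 in shSTBD1, without overlap, and its log2 fold change of 0.21 (SE 0.07) does not pass (edgeR adjusted p = 0.057). HSPB8, no member and the only other small heat shock protein tested, has 0.27 (SE 0.097) and does not pass either (edgeR adjusted p = 0.073).

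Of the 6 HSP90 co-chaperones 3 are called, all higher, beside 8.22% of all tested genes called higher. CDC37 (chr19:10391133-10420121, minus strand), which brings protein kinases to HSP90, has 314, 343 and 335 CPM in shControl and 361, 376 and 388 CPM in shSTBD1, with a log2 fold change of 0.18 (SE 0.038, edgeR adjusted p = 0.0037). FKBP4 (chr12:2794970-2805423, plus strand), the immunophilin FKBP52 of steroid receptor complexes, has 369, 343 and 347 CPM against 404, 392 and 386 CPM, and rises by 0.16 (SE 0.034, edgeR adjusted p = 0.005). AHSA1, which stimulates the ATPase of HSP90, has 154, 155 and 151 CPM against 173, 163 and 164 CPM and rises by 0.12 (SE 0.034, edgeR adjusted p = 0.023). None of these groups overlaps in CPM, while the TPM of AHSA1 do overlap. The mean effective length of FKBP4 is 3052 bases in shControl and 3161 bases in shSTBD1, and with it as an offset the log2 fold change is 0.11 (edgeR adjusted p = 0.14). CDC37 and FKBP4 keep their calls when any 1 library is left out. AHSA1 loses its call without shControl 3, shSTBD1 1 or shSTBD1 3, and also with gene-length trend offsets, where its log2 fold change is 0.074 (edgeR adjusted p = 0.16). The adaptor STIP1 (HOP), which links HSP70 to HSP90, the co-chaperone PTGES3 (p23) and CHORDC1 stay between -0.052 and 0.018 and do not pass.

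The HSP90 proteins themselves do not pass the test. HSP90AB1 has a log2 fold change of 0.0088 (SE 0.032) and HSP90AA1 one of 0.065 (SE 0.04). HSP90AA1 has 3822 CPM in shControl 1, 3356 and 3434 CPM in the other shControl libraries and 3771, 3684 and 3644 CPM in shSTBD1. Without shControl 1 its log2 fold change is 0.12 (SE 0.019, edgeR adjusted p = 6.91e-05). The ratio of HSP90AB1 to HSP90AA1 in TPM averages 1.70 ± 0.111 (SD, n = 3) for shControl against 1.64 ± 0.0254 (SD, n = 3) for shSTBD1, a difference within the spread of shControl.

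Of the 8 HSP70 and HSP110 proteins 3 are called (37.5%, beside 15.8% of all tested genes). HSPA4L is higher and HSPH1 and HSPA1A are lower, where the HSPA1A value is uncertain, as described below. HSPA4L, an HSP110-type exchange factor, has 61.4, 57.0 and 57.1 CPM in shControl and 67.9, 65.7 and 65.2 CPM in shSTBD1, a log2 fold change of 0.18 (SE 0.043, edgeR adjusted p = 0.010). HSPH1 (HSP105, chr13:31134973-31162388, minus strand), another protein of the HSP110 type, goes the other way, with 301, 300 and 290 CPM against 275, 272 and 268 CPM, and falls by 0.13 on the log2 scale (SE 0.031, edgeR adjusted p = 0.0094). The groups of both genes do not overlap. HSPA4, the third HSP110-type gene, has 388, 358 and 368 CPM against 398, 380 and 385 CPM, which overlap. Its TPM do not, with 134, 141 and 139 TPM against 150, 151 and 148 TPM. Among the fits run HSPA4 passes only with effective-length offsets (0.14, edgeR adjusted p = 0.048) and without shControl 1 (0.094, edgeR adjusted p = 0.0137). HSPH1 loses its call without shSTBD1 3, and HSPA4L without shSTBD1 1.

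HSPA1A and HSPA1B, the stress-inducible HSP70 pair, have to be read together. They lie beside each other on chromosome 6 (chr6:31815543-31817946 and chr6:31827738-31830254, both plus strand), and their coding sequences of 1923 bases differ at 4 bases, an identity of 99.8%. HSPA1A is listed with 6.02, 6.56 and 5.37 CPM in shControl and 3.34, 4.74 and 4.44 CPM in shSTBD1, a log2 fold change of -0.52 (SE 0.15, edgeR adjusted p = 0.028). HSPA1B is listed with 525, 511 and 492 CPM against 506, 532 and 497 CPM, a log2 fold change of 0.0073 (SE 0.035). HSPA1A takes between 0.654% and 1.27% of the sum of both, and RSEM's posterior standard deviation of its count is 13.0% of the count, while no other member exceeds 0.734%. Summed to 1 feature, the pair has 531, 518 and 497 CPM against 510, 537 and 502 CPM, with overlapping groups and a log2 fold change of 0.0022 (SE 0.035, edgeR adjusted p = 0.98). With so small a part from HSPA1A, the sum follows HSPA1B and cannot test HSPA1A alone. Reads of near-identical copies cannot be told apart over most of their length, and the lower HSPA1A value is uncertain. Its call is also lost without shControl 2, shSTBD1 1 or shSTBD1 3.

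The constitutive HSPA8 has a log2 fold change of 0.033 (SE 0.03) on counts. On log2(TPM + 1) it is -0.061 and with effective-length offsets -0.038, so that its direction flips with the treatment of length, and it passes in none of the fits run. HSPA13, of the endoplasmic reticulum, and the ribosome-associated HSPA14 have 0.026 and 0.070 and do not pass.

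**Figure D3:**
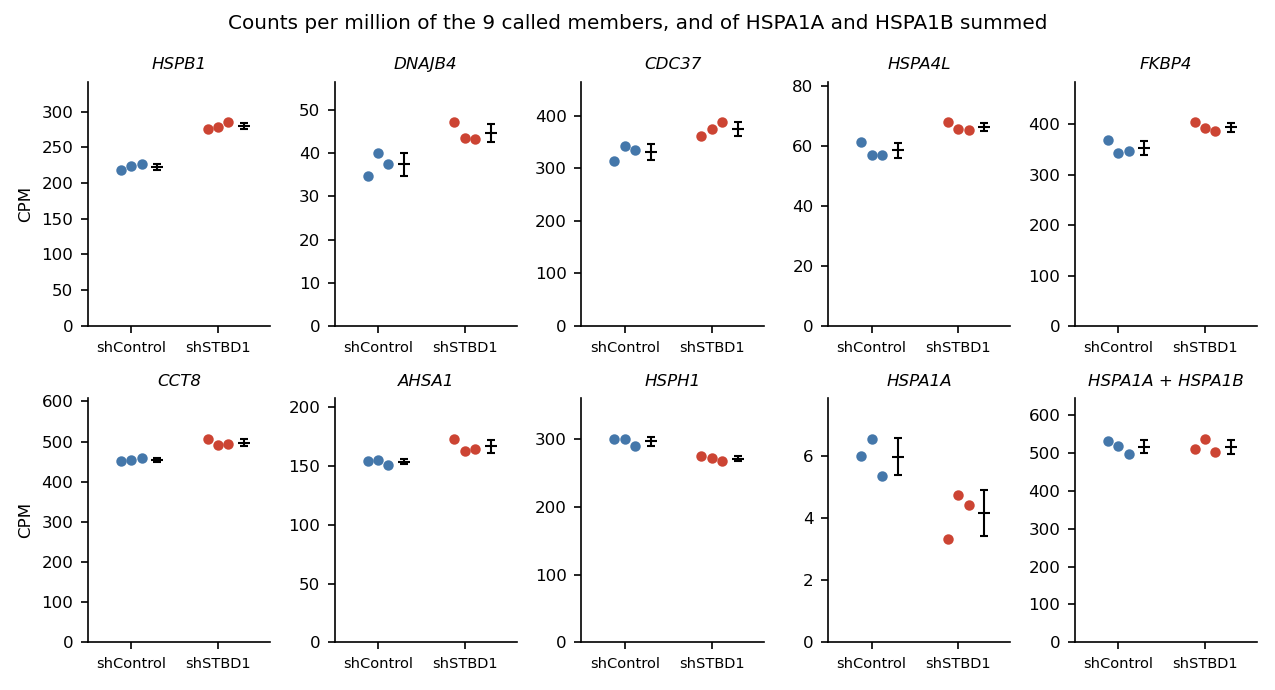
CPM of the 9 called members, and of HSPA1A and HSPA1B summed, in each library, with the mean and SD (n = 3) in black and the axes starting at 0. The groups are separate for each of the 9 genes and overlap for the summed pair.

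J-domain proteins, which deliver clients to HSP70, hold 1 called gene of 5 (20.0%, beside 15.8% of all tested genes). DNAJB4 (HLJ1) has 34.8, 40.1 and 37.5 CPM in shControl and 47.2, 43.6 and 43.3 CPM in shSTBD1, with a log2 fold change of 0.25 (SE 0.058, edgeR adjusted p = 0.0071). No shSTBD1 library falls into the shControl range, and the call is lost without shSTBD1 1. The stress-inducible DNAJB1 (HSP40) has 248, 246 and 240 CPM against 236, 235 and 231 CPM, separate but not called (-0.064, SE 0.031, edgeR adjusted p = 0.17). DNAJA1 has -0.086 (SE 0.033, edgeR adjusted p = 0.088), and DNAJA2 and DNAJB6 have 0.054 and 0.046. The BAG nucleotide exchange factors BAG1, BAG2 and BAG3 lie between -0.072 and 0.046, and none passes.

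No mitochondrial chaperone passes the test. HSPD1 and its lid HSPE1 (HSP10), whose genes lie head to head, have log2 fold changes of -0.046 (SE 0.032) and 0.088 (SE 0.038). Their TPM ratio is 2.50, 2.11 and 2.19 in shControl and 2.17, 2.08 and 1.93 in shSTBD1, with overlapping values. HSPA9 (mortalin), which pulls proteins into the matrix, has 661, 635 and 639 CPM against 616, 613 and 602 CPM, separate groups with a log2 fold change of -0.080 (SE 0.03, edgeR adjusted p = 0.085). It passes by DESeq2 (adjusted p = 0.0488) and without shControl 1 (edgeR adjusted p = 0.0482), and its estimate is 0.011 with effective-length offsets. TRAP1, the mitochondrial HSP90, and the J-domain protein DNAJA3 have -0.0064 and 0.00043.

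All 8 subunits of TRiC, which folds actin and tubulin, have a log2 fold change above 0, from 0.0066 for TCP1 to 0.13 for CCT8. Their median is 0.041. Of the 41 members 73.2% lie above 0, and of all tested genes 50.7%. CCT8 (chr21:29055805-29073797, minus strand) is the single subunit that passes (12.5% of them, beside 15.8% of all tested genes), with 451, 453 and 459 CPM in shControl and 507, 492 and 493 CPM in shSTBD1 (SE 0.03, edgeR adjusted p = 0.0067). Without shControl 1 the subunits CCT2, CCT6A, CCT7 and CCT8 pass, and without shSTBD1 1 none does. TCP1 turns to -0.079 with effective-length offsets, and then 7 of 8 subunits stay above 0. The count is also 7 with gene-length trend offsets and with limma on TPM at either pseudocount. It is 7 as well without shControl 2, shControl 3 or shSTBD1 1. Summed over the complex, shControl averages 3055 ± 34.5 TPM (SD, n = 3) against 3090 ± 51.5 TPM (SD, n = 3) for shSTBD1.

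The heat shock transcription factors HSF1 and HSF2 do not pass, with log2 fold changes of 0.063 (SE 0.035) and 0.053 (SE 0.055). HSF1 is measured at 114, 109 and 113 CPM in shControl and 118, 115 and 118 CPM in shSTBD1. None of the 7 members with an exact heat shock element is called, and their log2 fold changes lie between -0.086 and 0.065 with a median of 0.0088. Without shControl 1 HSP90AA1, 1 of these 7, is called (0.12, edgeR adjusted p = 6.91e-05). Of the 11 members with a match only at 1 mismatch 4 are higher and 1 is lower, with a median of 0.018. Of the 19 members without a match in their own windows 2 are higher and 1 is lower, with a median of 0.046. HSPE1 is among these 19, though the HSPD1 elements lie before its annotated start. The called member FKBP4 has no window and is in none of these classes. Of all tested genes 15.8% are called, and a difference between the promoter classes was not tested. The RNA level of HSF1 says nothing of its activity, which is set on the protein.

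HSPB1 is the single member called in all 17 alternative fits. HSPB1, CDC37 and FKBP4 are called in all 6 fits that leave out 1 library. Without shControl 1 the count rises to 15 members, and 16.2% of all genes are called, with CCT2, CCT6A, CCT7, HSP90AA1, HSPA4 and HSPA9 added. Without shSTBD1 1 it falls to 4, HSPB1, CDC37, FKBP4 and HSPH1 (9.84% of all genes), and without shSTBD1 3 to 6 (9.46% of all genes).

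**Figure D4:**
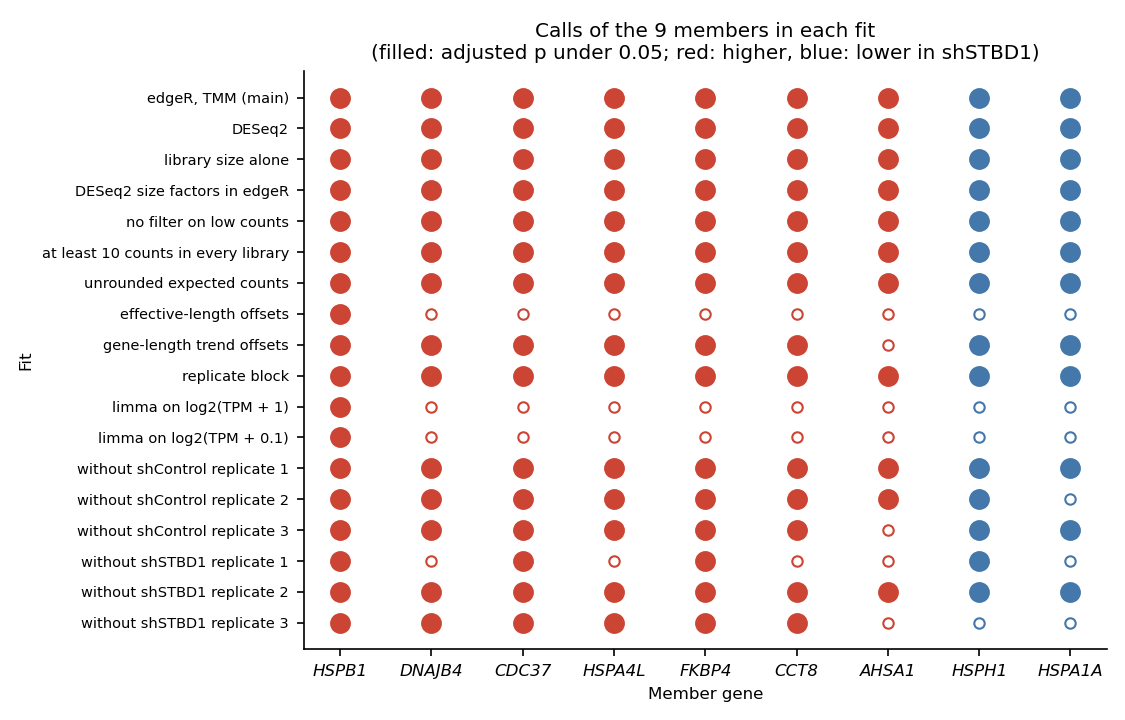
Calls of the 9 members in the edgeR fit and in 17 alternatives, 1 column a gene and 1 row a fit, with filled points for an adjusted p under 0.05, red for higher and blue for lower in shSTBD1. The column of HSPB1 is filled throughout, and the rows with effective-length offsets and with TPM hold no other filled point.

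A wider list of 94 other chaperone genes places the members in their network. Of these 85 are tested, and 5 are higher and 5 lower (11.8% called, beside 15.8% of all tested genes), with a median log2 fold change of 0.013. Among its 17 tested partner proteins of HSP70 and HSP90 only 1 is called, FKBP5 (5.88%), and their median is 0.018. FKBP5, the FKBP51 partner of HSP90 that counters FKBP4 on steroid receptors, rises by 0.41 (SE 0.04, edgeR adjusted p = 3.4e-06), from 87.1 ± 3.66 to 116 ± 4.22 CPM (SD, n = 3). The clathrin uncoating protein DNAJC6 rises by 0.34, and the prefoldin subunits PFDN6 and PFDN4, which hand actin and tubulin to TRiC, rise by 0.23 and 0.22. DNAJC3 and HYOU1, chaperones of the endoplasmic reticulum, fall by 0.22 and by 0.17 on the log2 scale. The mitochondrial DNAJC11 and the protease subunit CLPP fall by 0.16 and by 0.15. With effective-length offsets 1 gene of this list is called.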

How the data were processed

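RNA of HCT116 cells was measured in 3 shControl and 3 shSTBD1 libraries, grouped by their labels. The authors removed low-quality reads, mapped the others with STAR 2.7.1a (build hg38) and quantified genes by RSEM 1.3.1. The deposited expected counts are not normalized and were rounded here. The TPM values were computed by the authors with RSEM from count and effective length, and whether counting used strand is not stated. Members and lists were chosen with earlier results of these data known. All 41 symbols were matched to 1 Ensembl gene each, and HSPB11 was matched through its current symbol. Positions are from GENCODE on GRCh38.

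Genes were filtered by filterByExpr, scaled by TMM and compared by the quasi-likelihood F-test of edgeR 4.0.16 (R 4.3.3), two-sided, with Benjamini-Hochberg adjustment over 15566 genes and a threshold of 0.05. Standard errors were derived from the fold change and the F statistic. DESeq2 1.42.0, limma 3.58.1 on log2(TPM + 1) and log2(TPM + 0.1), other scalings, filters, length offsets (a lowess span of 0.3 for the length trend) and fits without each library were the alternatives. A fold change on log2(TPM + pseudocount) understates that of low genes. Depth ran from 17689097 to 21668274 expected counts. Named genes are all 41 members, STBD1 and cell type markers. Of the other chaperones called at a mean of at least 1 CPM, the 4 highest and 4 lowest by log2 fold change are named. HSPB8 is named in addition, as the only other small heat shock protein tested, though it is not called. The promoter search is a description with no test. The same replicate numbers did not deviate together (correlations of 0.0708, 0.0676 and -0.00841), so libraries were not treated as pairs.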

Additional observations from a re-analysis of the deposited data

How the results depend on the processing

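Of the 41 members 9 are called. The count lies between 8 and 10 under DESeq2, the other scalings and filters, unrounded counts, gene-length trend offsets and the summed HSPA1 pair, falls to 2 with effective-length offsets and to 1 with limma on TPM at either pseudocount, and runs from 4 to 15 when 1 library is left out. Other chaperones called fall from 10 to 1 in each of the effective-length and TPM fits. All genes called fall from 2453 to 510 with effective-length offsets, 292 with log2(TPM + 1) and 290 with log2(TPM + 0.1), and run from 1409 to 2577 when 1 library is left out. STBD1 stays lower in all fits, at -0.54 with log2(TPM + 1) and -0.65 with log2(TPM + 0.1), where it does not pass (limma adjusted p = 0.065 and 0.067). The cause was not tested. With the replicate block 9 members are called, the same as without it, and 2579 genes in all. No alternative moves the median of all genes by over 0.1.

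Of 698 member values recomputed 42 turn direction, in 12 members, and 41 of these belong to members that are not called. The exception is counted under HSPA1A but is the value of its sum with HSPA1B, 0.0022. HSPA1A takes at most 1.27% of that sum. Fitted as its own gene HSPA1A keeps its direction in all fits, from -0.62 to -0.39. With log2(TPM + 1) HSF1 turns to -0.015, HSPA1B to -0.015, HSPA8 to -0.061, HSP90AB1 to -0.012, DNAJA3 to -0.083, PTGES3 to -0.0037 and TCP1 to -0.10, and with log2(TPM + 0.1) the values are the same but for HSP90AB1 at -0.013 and DNAJA3 at -0.084. With effective-length offsets HSPA8 turns to -0.038, HSPA9 to 0.011, DNAJA3 to -0.058 and TCP1 to -0.079. With gene-length trend offsets DNAJA3 is at -0.0014, DNAJB6 at -0.0012 and TCP1 at -0.016. TRAP1 turns to 0.004 by library size alone. DNAJA3, at 0.00043 in the reported fit, is at -0.0024 by DESeq2, -0.0022 with its size factors, -0.00048 with at least 10 counts and -0.00025 with the replicate block. When 1 library is left out, values run for HSPA1B from -0.021 to 0.029, HSPA13 from -0.029 to 0.063, HSP90AB1 from -0.0072 to 0.039, TRAP1 from -0.019 to 0.0013, DNAJA3 from -0.022 to 0.023, PTGES3 from -0.0045 to 0.042 and TCP1 from -0.009 to 0.026.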
